A study of Homo sapiens with 15 samples.

Results

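The response of PC3 cells to MYCi975 was set against the response of P493-6 cells to tetracycline, gene by gene, to find genes that moved the same way and genes that moved in opposite ways. Of the 15 libraries of the series, 12 entered this comparison, 3 in each of 4 groups, and the effects share no library. PC3 is a line from a prostate carcinoma that makes its own MYC, and its cells received DMSO or 8 µM MYCi975, a small molecule made to inhibit MYC, for 24 h. P493-6 is a B cell line, labelled as a Burkitt lymphoma line overexpressing c-MYC, in which tetracycline switches off an introduced MYC gene; its cells received DMSO or 0.1 µg/ml tetracycline for 24 h. Genes were joined on their Ensembl identifier: 11435 were listed in both deposited tables, of 13751 in the PC3 table and 13703 in the tetracycline table. Each table holds only genes above 1 CPM in at least 2 of its 6 libraries, so a gene that either line barely expresses is not among the 11435. Values are CPM, that is counts scaled to 1000000 counted reads in each library. A rise or fall is therefore relative to the other genes, and total RNA per cell was not measured.

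The cell line, the agent and the dose change together between the effects, so what comes from the line and what comes from the agent cannot be told apart. MYCi975 was dissolved in DMSO and tetracycline in water, while both control groups received DMSO. Separate cultures for the 3 libraries within a group are not stated in the labels, so the p-values reflect library-to-library spread that could be technical only. Depth ran from 8162582 to 15926008 reads per library, and libraries of a group correlated at 0.994 to 0.997. Of 10 B cell markers, 10 were in the tetracycline table and 1 was in the PC3 table. Of 9 epithelial markers, 7 were in the PC3 table and 3 (EPCAM, KRT19 and KRT7) in the tetracycline table. EPCAM measured 13.5 to 15.9 CPM in PC3 controls, 10.7 to 11.9 CPM in P493-6 controls and 0.808 to 2.64 CPM with tetracycline. Of 7 markers of luminal prostate cells, 4 were in the PC3 table and KLK3, KLK2 and FOLH1 were not; their sum was 179 to 196 CPM in PC3 controls and 98.2 to 102 CPM with MYCi975. In bulk RNA, more cells of a type and more RNA per cell cannot be told apart. The summed B cell markers were 4324 to 4527 CPM in P493-6 controls and 12549 to 12952 CPM with tetracycline. Summed myeloid markers, 3 of 6 of them listed and CD14, CSF1R and FCGR3A not, were 8.84 to 10.6 CPM in the same controls and 136 to 142 CPM with tetracycline. Summed T cell markers (4 of 6 listed, CD3D and CD8A not) were 13.6 to 18.3 and 47.6 to 52.1 CPM, and fibroblast markers (2 of 6 listed, COL1A2, COL3A1, DCN and LUM not) 10.2 to 12.2 and 25.7 to 33.8 CPM. The part of these markers in the results below was not tested. Where the values of single libraries are listed below, treated and control libraries did not overlap in either line unless stated.

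MYC is a transcription factor that binds DNA with its partner MAX, mostly at the sequence CACGTG, and is known to drive ribosome production, nucleotide synthesis, DNA replication and other needs of growing cells. The integrated stress response (ISR) is a separate program in which the factor ATF4 raises genes for amino acid synthesis, transport and tRNA charging under shortage of amino acids or misfolding of proteins. Several of those biosynthetic genes are also known MYC targets.

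MYC itself (ENSG00000136997, chromosome 8) measured 301, 300.4 and 309 CPM in PC3 controls, 378, 359 and 386 CPM in PC3 with MYCi975, 4692, 4701 and 4791 CPM in P493-6 controls and 152, 145 and 149.8 CPM with tetracycline. The tetracycline libraries lay below every P493-6 control, while the PC3 libraries with MYCi975 lay above every PC3 control. Its log2 fold changes, taken like all below on log2(CPM + 1), were 0.30 (SE 0.033, adjusted p = 1.31e-09) in PC3 and −4.98 (SE 0.033, adjusted p = 9.71e-45) with tetracycline. The difference of the effects, PC3 minus tetracycline, was 5.28 (SE 0.046, adjusted p = 1.35e-40). MAX had log2 fold changes of −0.09 (SE 0.050, adjusted p = 0.136) in PC3 and 0.00 (SE 0.050, adjusted p = 0.997) with tetracycline, and neither passed the threshold of an adjusted p below 0.05; with TMM scaling its tetracycline value was 0.18 (adjusted p = 0.00151). The deposited entry for MYC does not separate the introduced gene from the endogenous copy.

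MYCi975 changed 6116 genes in PC3 (53.5% of those tested), and tetracycline changed 9248 in P493-6 (80.9%). In PC3 2841 genes rose (24.8%) and 3275 fell (28.6%). With tetracycline 3785 rose (33.1%) and 5463 fell (47.8%), and the changes were larger: the median absolute log2 fold change among called genes was 0.75, against 0.39 in PC3. At least 2-fold changes numbered 186 up and 140 down in PC3, and 1157 up and 2098 down with tetracycline. All genes together had a median log2 fold change of −0.01 in PC3 and −0.15 with tetracycline; TMM scaling shifted the tetracycline median by 0.16, to 0.01, and changes of groups below are to be read against these medians. The median difference over all genes moved from 0.15 to 0.02 in the same step, a shift of −0.13. With TMM 4656 genes rose and 4648 fell with tetracycline, and with DESeq2 on recovered reads 4867 rose and 4119 fell. Treated and control libraries did not overlap for 62.9% of all genes in PC3 and 79.6% in P493-6. The test of the difference called 8115 genes (71.0%), of which 4902 were positive (42.9%) and 3213 negative (28.1%). With DESeq2 the difference split into 3736 positive and 4149 negative genes.

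Among the 5287 genes called in both effects, 70.5% had the same sign. Concordant genes numbered 3729 (32.6% of genes tested) and opposite genes 1558 (13.6%). Concordant rises numbered 1491 (13.0%) and concordant falls 2238 (19.6%). Genes that rose in PC3 and fell with tetracycline numbered 929 (8.12%), and those that fell in PC3 and rose with tetracycline 629 (5.50%). The tables hold genes above 1 CPM in at least 2 libraries, and a gene that met this in 1 group alone had to be higher there: this touches 72 of the 2841 rises and 46 of the 3275 falls in PC3, and 278 of the 3785 rises and 218 of the 5463 falls with tetracycline. DESeq2 gave 1998 concordant rises and 1643 concordant falls. Opposite genes up in PC3 and down in PC3 numbered 784 and 760 with DESeq2, and 872 and 715 with TMM. Of the 929 and 629 opposite genes, DESeq2 kept 666 and 504 in their class, and TMM kept 751 and 526. Of the genes that fell in PC3, 68.3% also fell with tetracycline, and of those that rose, 52.5% also rose. Read from the tetracycline side, the shares were 41.0% of the genes that fell and 39.4% of those that rose. A same direction did not mean the same size: the difference itself passed for 899 of the 1491 concordant rises and for 1663 of the 2238 concordant falls. Among these, tetracycline gave the larger change in 765 and 1505 genes and MYCi975 in 134 and 158. Across all genes the effects correlated at a Pearson r of 0.275 and a Spearman rho of 0.321, a description over genes that share libraries and are not independent.

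**Figure D1:**
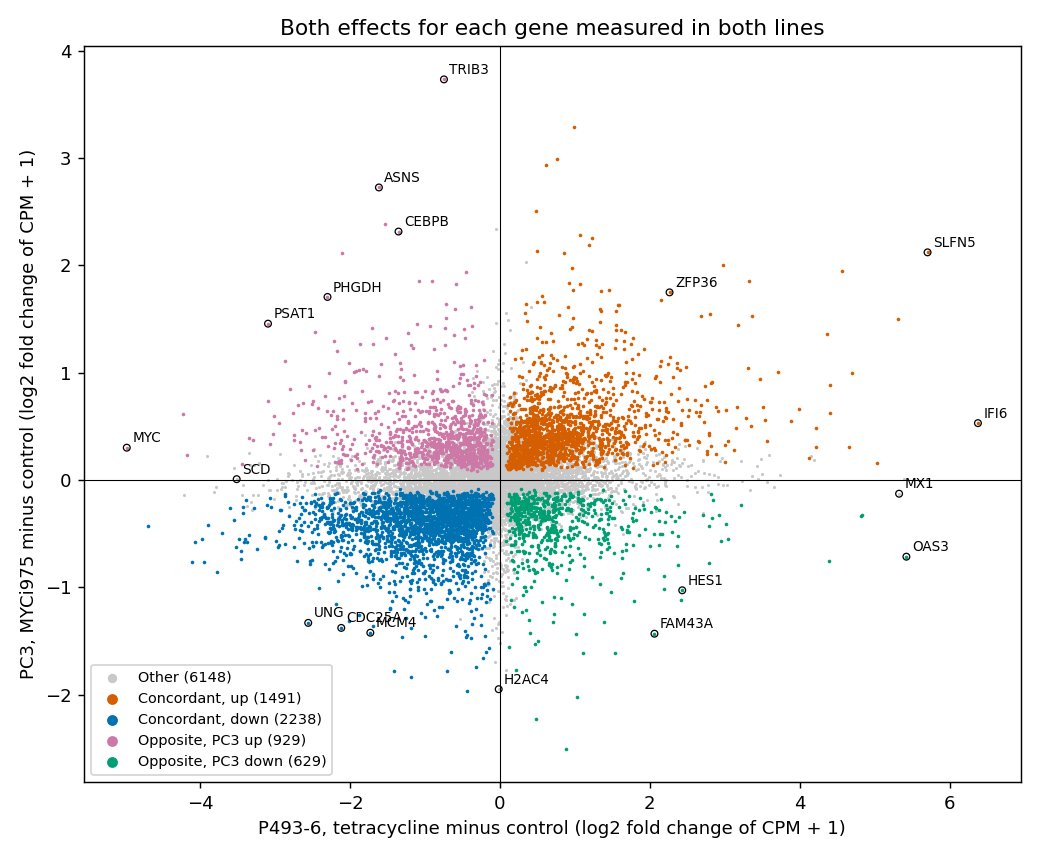
Each point is 1 of the 11435 genes listed for both lines; the x axis is the log2 fold change with tetracycline in P493-6 and the y axis that with MYCi975 in PC3, both on CPM + 1, with colours for the 4 classes and rings around labelled genes. The 2238 concordant falls lie in the lower left quadrant, among 4091 genes there, and TRIB3, ASNS, PHGDH and PSAT1 stand in the upper left, up in PC3 and down with tetracycline.

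The share of genes called in the same direction in PC3 was also counted by the size of the tetracycline effect. Of the 2526 genes that tetracycline moved down by up to 0.5 on the log2 scale, called or not, 28.7% fell in PC3; the share was 37.3% of 1902 genes at 0.5 to 1, 48.9% of 1643 genes at 1 to 2 and 48.1% of 455 genes beyond 2. The median PC3 log2 fold change in these ranges was −0.04, −0.10, −0.18 and −0.18. On the rising side, the share that rose in PC3 was 28.9%, 38.0%, 43.5% and 47.2% over the same ranges.

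Concordant falls took in nearly all measured genes of DNA replication. Of 39 measured replication genes, 39 fell in PC3 and 38 fell with tetracycline, with median log2 fold changes of −0.78 in PC3 and −1.19 with tetracycline. These shares compare with 28.6% and 47.8% of all genes that fell, and 38 of the 39 fell in both, against 19.6% of all genes. The shares over all genes also stand behind the counts of the lists that follow. In PC3 24.8% rose and 28.6% fell, and with tetracycline 33.1% rose and 47.8% fell. Concordant rises were 13.0% and concordant falls 19.6% of all genes. Genes up in PC3 and down with tetracycline were 8.12%, and those down in PC3 and up with tetracycline 5.50%. MCM10 (ENSG00000065328, chromosome 10, 13161554 to 13211104 on the plus strand; positions are on hg38), which helps activate the replicative helicase, measured 54.6, 54.3 and 56.9 CPM in PC3 controls, 21.1, 20.3 and 21.3 CPM in PC3 with MYCi975, 91.7, 88.8 and 89.01 CPM in P493-6 controls and 25.7, 29.8 and 25.9 CPM with tetracycline. CDC25A, the phosphatase that activates cyclin-dependent kinases at entry into DNA synthesis, measured 64.3, 66.5 and 68.6 CPM in PC3 controls, 25.6, 24.4 and 24.9 CPM in PC3 with MYCi975, 92.7, 95.3 and 97.6 CPM in P493-6 controls and 21.5, 21.4 and 20.6 CPM with tetracycline. Every treated library lay below every control of its line for these genes. Log2 fold changes were −1.36 (SE 0.066, adjusted p = 1.02e-18) in PC3 and −1.69 (SE 0.066, adjusted p = 1.78e-22) with tetracycline for MCM10. For CDC25A they were −1.38 (SE 0.061, adjusted p = 1.03e-19) in PC3 and −2.12 (SE 0.061, adjusted p = 3.15e-26) with tetracycline, and the fall was larger with tetracycline, a difference of 0.74 (SE 0.086, adjusted p = 2.39e-09).

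PCNA, the sliding clamp of the DNA polymerases (ENSG00000132646, chromosome 20, 5114953 to 5126626 on the minus strand), fell in both lines. It measured 235, 225 and 231 CPM in PC3 controls, 97.1, 95.6 and 88.8 CPM in PC3 with MYCi975, 264, 276 and 259 CPM in P493-6 controls and 108, 118 and 107 CPM with tetracycline. Its log2 fold changes were −1.29 (SE 0.045, adjusted p = 9.67e-23) in PC3 and −1.26 (SE 0.045, adjusted p = 1.43e-23) with tetracycline, and the difference of −0.03 (SE 0.063, adjusted p = 0.675) did not pass; with TMM scaling it was −0.17 (adjusted p = 0.0165), a larger fall in PC3. MCM2, a subunit of the helicase, measured 209.7, 208 and 211 CPM in PC3 controls, 92.5, 86.9 and 93.2 CPM in PC3 with MYCi975, 399, 434 and 406 CPM in P493-6 controls and 162, 172 and 175 CPM with tetracycline. Log2 fold changes of MCM2 were −1.20 and −1.28, with a difference, 0.08 (SE 0.059, adjusted p = 0.214), that did not pass. Geminin (GMNN), which prevents origins from being licensed again, had −1.20 in PC3 and −1.47 with tetracycline, and UHRF1, which guides maintenance of DNA methylation, −1.47 in PC3 and −1.30 with tetracycline. UNG, the glycosylase that removes uracil from DNA, fell further with tetracycline (−1.33 in PC3 and −2.56 with tetracycline). MCM4, another helicase subunit, changed by −1.42 in PC3 and −1.73 with tetracycline. NR2F2, an orphan nuclear receptor (−1.31 and −2.02), and GPER1, a membrane oestrogen receptor (−1.25 and −1.88), completed the 10 concordant falls named by rule, all without overlap of groups in either line. Within the replication list POLE2 and POLD2, subunits of DNA polymerases, had the largest differences, with −0.78 in PC3 and −2.33 with tetracycline for POLE2 and −0.17 in PC3 and −2.14 with tetracycline for POLD2, whose PC3 fall did not pass with TMM scaling.

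The list of known MYC targets fell in both lines but with unlike sizes. Of 56 measured targets, 45 fell and 3 rose in PC3, while 56 of 56 fell with tetracycline; the medians were −0.41 in PC3 and −2.33 with tetracycline. The difference was positive, that is the fall was smaller in PC3 or absent, for 53 members. SRM, the spermidine synthase, measured 358, 333 and 348 CPM in PC3 controls, 309.9, 305 and 329 CPM in PC3 with MYCi975, 385, 403 and 375 CPM in P493-6 controls and 34.1, 44.2 and 38.2 CPM with tetracycline. In PC3 its change of −0.14 did not pass (adjusted p = 0.115; it did with edgeR, −0.09). With tetracycline it fell by 3.29. RRP9, a protein of the small nucleolar ribonucleoproteins that process ribosomal RNA, likewise had −0.14 in PC3 and −3.44 with tetracycline. The members that rose in PC3 included HK2, a hexokinase of glycolysis (0.34 in PC3 and −2.13 with tetracycline), and SUPV3L1, a mitochondrial RNA helicase (0.29 in PC3 and −2.003 with tetracycline).

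Ribosome production and RNA processing followed the same pattern. Of 61 ribosome biogenesis genes, 48 fell in PC3 and 61 with tetracycline, at medians of −0.37 in PC3 and −2.10 with tetracycline. NOP58, a core protein of the ribonucleoproteins that methylate ribosomal RNA, changed by −0.75 in PC3 and −2.09 with tetracycline, and RRS1, an assembly factor of the large subunit, by −0.74 in PC3 and −2.50 with tetracycline, whereas RRP12 was at −0.01 in PC3 (adjusted p = 0.85) and −2.86 with tetracycline. POLR1G, a subunit of RNA polymerase I, measured 137, 137 and 141 CPM in PC3 controls, 83.5, 79.98 and 79.4 CPM in PC3 with MYCi975, 160.3, 172 and 155 CPM in P493-6 controls and 6.89, 9.80 and 8.99 CPM with tetracycline, with −0.76 in PC3 and −4.11 with tetracycline. For splicing factors, 46 of 48 fell in PC3 and 48 of 48 with tetracycline, and the sizes were closer (medians −0.46 in PC3 and −0.97 with tetracycline). SRSF6 and SRSF2, members of the serine and arginine rich family of splicing regulators, changed by −1.14 in PC3 and −1.23 with tetracycline and by −1.04 in PC3 and −1.48 with tetracycline; the difference for SRSF6 (0.09, SE 0.060, adjusted p = 0.185) did not pass. All 8 subunits of the chaperonin CCT fell in both, at medians of −0.47 in PC3 and −1.73 with tetracycline. Of 19 heat shock genes 16 fell in PC3 and 18 with tetracycline. Among them HSP90AA1, the inducible HSP90, measured 7099, 7498 and 7536 CPM in PC3 controls, 3739, 3867 and 3613 CPM in PC3 with MYCi975, 3533, 3363 and 3263 CPM in P493-6 controls and 976, 993 and 989 CPM with tetracycline. Proteasome subunits fell in 27 of 31 cases in PC3 and in 31 of 31 with tetracycline (medians −0.34 in PC3 and −0.81 with tetracycline). Nuclear transport genes fell in 39 of 52 cases in PC3 and 51 with tetracycline, with RANBP1 at −0.78 and −2.53; the tRNA exporter XPOT was an exception, with 0.85 in PC3 and −2.79 with tetracycline.

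Metabolic genes divided by pathway. Purine synthesis fell in both, 10 of 14 members in PC3 and 14 with tetracycline, and PFAS, an enzyme of the middle of the pathway, changed by −0.76 in PC3 and −2.71 with tetracycline. For pyrimidine and deoxynucleotide synthesis, 13 of 18 members fell in PC3 and 14 with tetracycline. TYMS, thymidylate synthase, fell more in PC3 (−1.27 in PC3 and −0.83 with tetracycline). RRM1, the large subunit of ribonucleotide reductase, changed by −0.998 in PC3 and −1.10 with tetracycline, and its difference of 0.10 (SE 0.054, adjusted p = 0.0975) did not pass. Thymidine kinase TK1 went in opposite directions (−1.21 in PC3 and 0.35 with tetracycline). In glycolysis, 15 of 22 members fell in PC3 and 18 with tetracycline. Of these, lactate dehydrogenase LDHA measured 1527, 1473 and 1464 CPM in PC3 controls, 740.2, 753 and 728 CPM in PC3 with MYCi975, 1549, 1568 and 1573 CPM in P493-6 controls and 297, 297 and 285 CPM with tetracycline. Mitochondrial ribosomal proteins fell in 43 of 77 cases in PC3 and 75 with tetracycline. Respiratory chain subunits were split in PC3, with 11 up and 20 down of 49, and 44 down with tetracycline, so that 9 were opposite, for example NDUFS8 of complex I (0.26 in PC3 and −0.83 with tetracycline).

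Among concordant rises, SLFN5, an interferon-inducible Schlafen family gene (ENSG00000166750, chromosome 17, 35243036 to 35273655 on the plus strand), came first when genes were ranked by the smaller of their changes. It measured 14.9, 19.4 and 22.2 CPM in PC3 controls, 79.4, 85.8 and 87.5 CPM in PC3 with MYCi975, 4.17, 4.99 and 5.63 CPM in P493-6 controls and 291, 322 and 308 CPM with tetracycline, without overlap in either line. Its log2 fold changes were 2.12 (SE 0.116, adjusted p = 4.32e-10) in PC3 and 5.70 (SE 0.116, adjusted p = 2.17e-16) with tetracycline. ZFP36, which binds AU-rich elements and destabilises messages, measured 4.40, 5.58 and 6.07 CPM in PC3 controls, 17.9, 20.8 and 22.1 CPM in PC3 with MYCi975, 46.3, 43.5 and 42.6 CPM in P493-6 controls and 209, 219.9 and 218 CPM with tetracycline, and changed by 1.75 in PC3 and 2.26 with tetracycline. A further 7 rises named by rule are given with their changes in PC3 and with tetracycline. They were TCP11L2 (2.004 and 2.97), the translation regulator CPEB3 (1.68 and 2.15) and the kinase RPS6KA2 (1.63 and 1.57). They also took in the ERK phosphatase DUSP5 (1.54 and 2.80) and CREBRF, a regulator of a CREB3 transcription factor (1.53 and 2.68). The last were WIPI1, a protein of early autophagosomes (1.58 and 1.54), and the autophagy receptor optineurin OPTN (1.53 and 3.36). For RPS6KA2 and WIPI1 the difference did not pass, at 0.06 (SE 0.196, adjusted p = 0.798) and 0.03 (SE 0.207, adjusted p = 0.897); the other genes named here rose more with tetracycline.

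**Figure D2:**
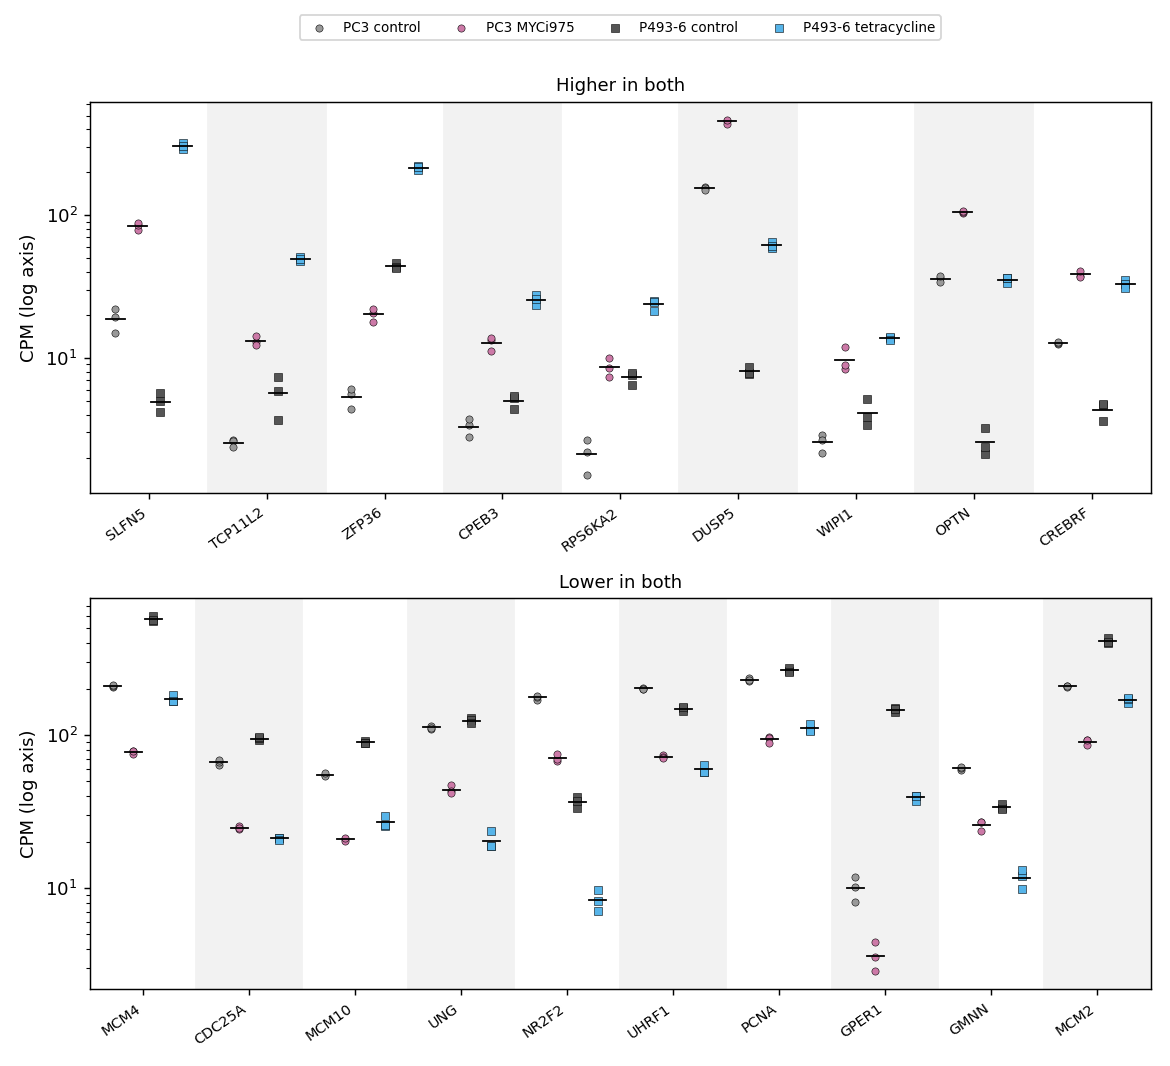
CPM on a log axis in each of the 12 libraries for concordant rises (top) and concordant falls (bottom) named by rule; points are libraries, short bars are group means, and the 4 positions per gene are PC3 control, PC3 MYCi975, P493-6 control and P493-6 tetracycline. In each line the treated libraries do not overlap the controls; MCM4 in P493-6 starts at 558 to 599.5 CPM and ends at 167 to 182 CPM.

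Genes of the quiescent state rose together in part. Of 27 measured members, 15 rose in PC3 and 21 with tetracycline, 14 of them in both, at medians of 0.34 in PC3 and 0.87 with tetracycline. ZFP36L1, a relative of ZFP36, changed by 1.03 in PC3 and 2.41 with tetracycline, and rose in both. TXNIP, which binds thioredoxin and restrains glucose uptake, measured 38.6, 34.4 and 37.6 CPM in PC3 controls, 27.5, 27.5 and 26.2 CPM in PC3 with MYCi975, 38.2, 33.5 and 38.4 CPM in P493-6 controls and 256, 267 and 253 CPM with tetracycline. Its log2 fold changes were opposite, −0.43 in PC3 and 2.79 with tetracycline. Lysosome and autophagy genes rose in 26 of 38 cases in PC3 and 23 with tetracycline, 17 in both. Cytosolic ribosomal proteins, unlike the factors that assemble ribosomes, rose in 61 of 78 cases in PC3 and 60 with tetracycline, by small amounts (medians 0.15 in PC3 and 0.22 with tetracycline); pseudogenes close to identical to them make single values uncertain, and RPL27 with tetracycline went from −0.17 to 0.01 with TMM scaling. Antigen presentation genes of MHC class I rose in 9 of 14 cases in PC3 and 14 of 14 with tetracycline, for example TAPBP, the peptide-loading factor tapasin (0.50 in PC3 and 1.65 with tetracycline). Of 28 p53 targets 11 rose in both (39.3%, against 13.0% of all genes). The proapoptotic BCL2 family gene PMAIP1 rose more in PC3 (1.37 in PC3 and 0.68 with tetracycline, difference 0.69, SE 0.073, adjusted p = 3.19e-10), and BCL2A1, a survival gene of that family, was opposite (−0.57 in PC3 and 2.95 with tetracycline).

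Among opposite genes that rose in PC3 and fell with tetracycline, 4 of the 10 named by rule are enzymes of amino acid metabolism. PHGDH (ENSG00000092621, chromosome 1, 119659798 to 119744215 on the plus strand), the enzyme that opens serine synthesis, measured 62.04, 64.97 and 61.6 CPM in PC3 controls, 212, 201 and 208 CPM in PC3 with MYCi975, 181, 178 and 169 CPM in P493-6 controls and 37.99, 34.5 and 32.3 CPM with tetracycline. PSAT1, the next enzyme of that pathway, measured 30.96, 33.2 and 33.2 CPM in PC3 controls, 94.8, 89.5 and 88.1 CPM in PC3 with MYCi975, 73.6, 76.7 and 83.3 CPM in P493-6 controls and 9.41, 8.82 and 6.67 CPM with tetracycline. Both went up in every PC3 library with MYCi975 and down in every tetracycline library, with no overlap. Log2 fold changes of PHGDH were 1.71 (SE 0.052, adjusted p = 3.69e-24) in PC3 and −2.30 (SE 0.052, adjusted p = 2.6e-29) with tetracycline, a difference of 4.01 (SE 0.074, adjusted p = 3.35e-31). PSAT1 changed by 1.46 in PC3 and −3.09 with tetracycline, a difference of 4.55 (SE 0.117, adjusted p = 2.1e-25).

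ASNS, asparagine synthetase (ENSG00000070669, chromosome 7, 97852118 to 97872542 on the minus strand), measured 22.98, 23.5 and 23.4 CPM in PC3 controls, 168, 153 and 158 CPM in PC3 with MYCi975, 39.5, 36.5 and 43.5 CPM in P493-6 controls and 11.6, 11.5 and 13.9 CPM with tetracycline. PC3 libraries with MYCi975 exceeded all other groups, and tetracycline libraries were the lowest of P493-6. Its log2 fold changes were 2.72 (SE 0.075, adjusted p = 2.72e-25) in PC3 and −1.61 (SE 0.075, adjusted p = 3.79e-20) with tetracycline, a difference of 4.34 (SE 0.106, adjusted p = 1.1e-27). TRIB3, a pseudokinase induced by ATF4, measured 44.9, 46.99 and 43.3 CPM in PC3 controls, 610.4, 591 and 629.6 CPM in PC3 with MYCi975, 40.8, 41.1 and 36.9 CPM in P493-6 controls and 22.4, 25.1 and 22.1 CPM with tetracycline, with 3.73 in PC3 and −0.75 with tetracycline. CEBPB, a leucine zipper transcription factor, measured 41.2, 40.95 and 41.4 CPM in PC3 controls, 206, 202 and 219 CPM in PC3 with MYCi975, 18.2, 18.4 and 19.03 CPM in P493-6 controls and 7.35, 6.003 and 6.67 CPM with tetracycline, with 2.31 in PC3 and −1.35 with tetracycline. BCAT1, the cytosolic enzyme that transaminates branched-chain amino acids, measured 13.3, 12.7 and 11.8 CPM in PC3 controls, 32.9, 34.5 and 35.6 CPM in PC3 with MYCi975, 753, 751 and 793 CPM in P493-6 controls and 137, 138 and 137 CPM with tetracycline, with 1.38 in PC3 and −2.47 with tetracycline. XBP1, a transcription factor of the unfolded protein response, changed by 1.32 in PC3 and −1.52 with tetracycline. RGCC, a cell cycle regulator first described in the response to complement, changed by 2.38 in PC3 and −1.53 with tetracycline. RDH10, a retinol dehydrogenase, changed by 1.27 in PC3 and −1.86 with tetracycline, and ANK2, the adaptor ankyrin B, by 1.41 in PC3 and −1.70 with tetracycline. FAM241A completed the 10 with 1.30 in PC3 and −2.21 with tetracycline.

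**Figure D3:**
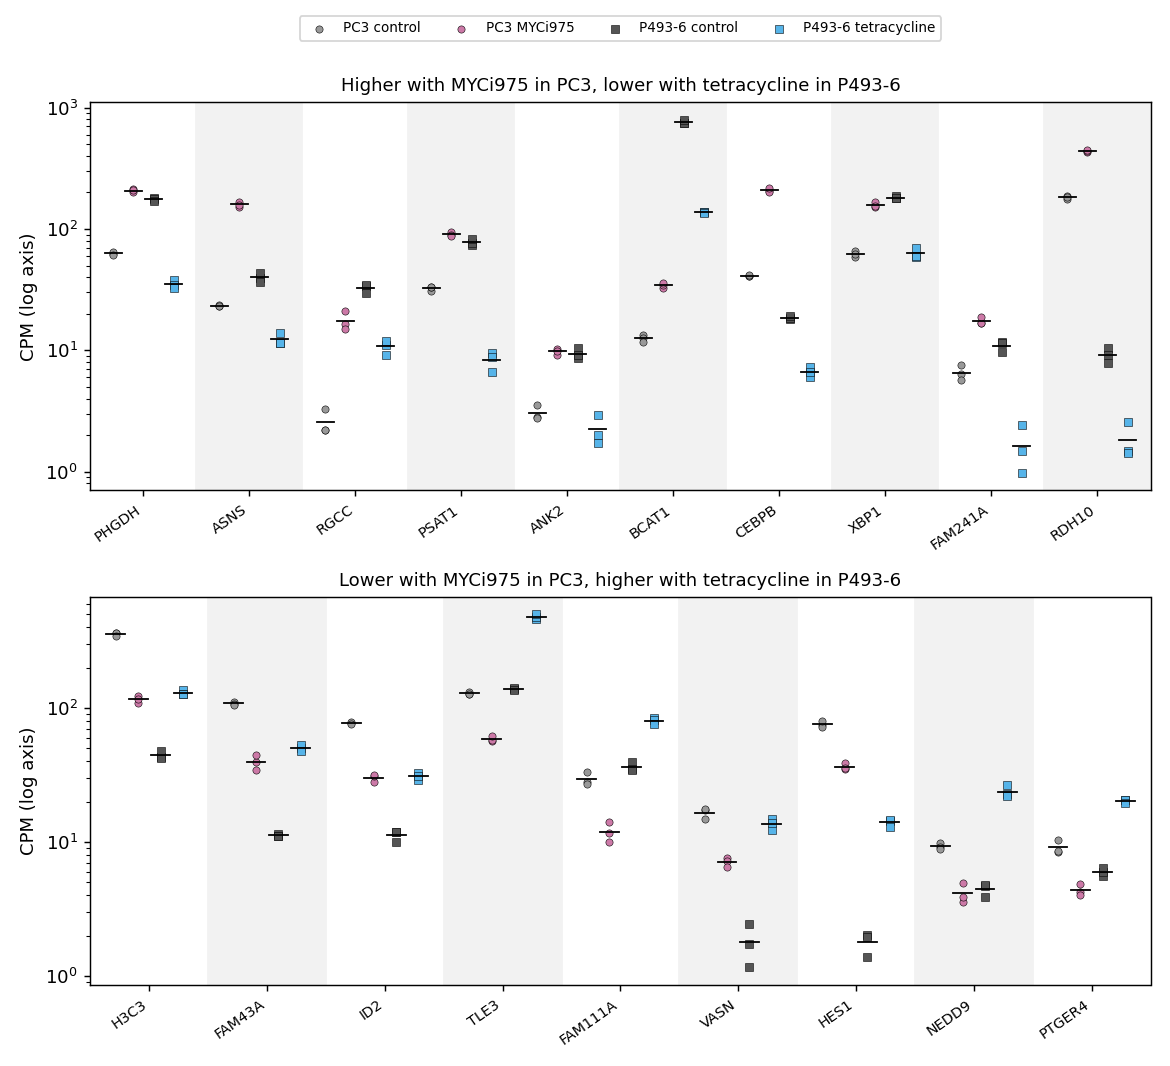
CPM on a log axis in each of the 12 libraries for genes of each opposite class named by rule; top, up in PC3 and down with tetracycline; bottom, down in PC3 and up with tetracycline; points are libraries and short bars group means. The ASNS libraries sit at 153 to 168 CPM in PC3 with MYCi975 and at 11.5 to 13.9 CPM in P493-6 with tetracycline.

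As a list, the integrated stress response held 28 measured genes. In PC3, 26 rose and 1 fell; with tetracycline 8 rose and 18 fell, at medians of 1.57 in PC3 and −0.97 with tetracycline. Opposite members numbered 16, against 8 concordant rises; among all genes these classes hold 8.12% and 13.0%. The opposite members included ATF4 itself (1.85 and −1.08 in PC3 and with tetracycline) and genes that make or import amino acids. Among the latter were the transporter subunits SLC7A5 (1.11 and −2.87) and SLC3A2 (0.93 and −2.07) and, in folate metabolism, MTHFD2 (1.09 and −1.33). The secreted factors STC2 (2.11 and −2.11) and VEGFA (1.01 and −1.94) were opposite too. The 8 concordant members included DDIT3, also called CHOP and tied to cell death (2.93 and 0.62), and DDIT4 (3.29 and 0.98) and SESN2 (2.99 and 0.76), which restrain mTORC1. ATF3, a related leucine zipper factor (1.77 and 1.45), and PPP1R15A, which restarts translation (1.33 and 1.77), rose as well. The others were PCK2, an enzyme that makes phosphoenolpyruvate in mitochondria (2.28 and 1.07), the lipoprotein receptor VLDLR (1.61 and 0.91) and KLHL24 (1.10 and 1.22). ATF4, SLC3A2, MTHFD2, DDIT3, PCK2, VLDLR and KLHL24 are given here after their values were seen. PPP1R15A measured 128, 130.3 and 135 CPM in PC3 controls, 349, 320.0 and 322 CPM in PC3 with MYCi975, 24.4, 22.03 and 20.8 CPM in P493-6 controls and 74.5, 87.2 and 74.9 CPM with tetracycline, and its rise was larger with tetracycline, a difference of −0.44 (SE 0.084, adjusted p = 2.28e-05). DDIT4 measured 3.33, 3.70 and 4.02 CPM in PC3 controls, 47.2, 44.5 and 42.6 CPM in PC3 with MYCi975, 25.7, 29.7 and 20.6 CPM in P493-6 controls and 51.1, 50.2 and 50.1 CPM with tetracycline, and its rise was larger in PC3, a difference of 2.31 (SE 0.138, adjusted p = 1.76e-16).

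The cytosolic tRNA synthetases, which charge tRNAs with amino acids, were opposite in 11 of 20 cases, 55% against 8.12% of all genes. GARS1, for glycine, measured 252, 251 and 253 CPM in PC3 controls, 593, 611 and 616 CPM in PC3 with MYCi975, 280.4, 279 and 281 CPM in P493-6 controls and 84.8, 88.8 and 85.1 CPM with tetracycline, with 1.26 in PC3 and −1.69 with tetracycline. EPRS1 and YARS1 changed by 0.91 in PC3 and −2.07 with tetracycline and by 1.03 in PC3 and −1.83 with tetracycline. Falls in both lines were seen for 6 synthetases, among them KARS1 (−0.39 and −1.11) and HARS1 (−0.43 and −0.75). Amino acid transporters were opposite in 7 of 14 cases in this direction, 50% against 8.12% of all genes. SLC7A5, the transporter of large neutral amino acids, measured 132, 133 and 127 CPM in PC3 controls, 274, 281 and 292 CPM in PC3 with MYCi975, 422, 413 and 432 CPM in P493-6 controls and 57.7, 56.8 and 56.6 CPM with tetracycline, and the arginine transporter SLC7A1 changed by 0.997 in PC3 and −2.27 with tetracycline. SLC38A2, a transporter induced by amino acid shortage, rose in both (0.60 and 0.77). In serine and one-carbon metabolism the pathway split: 6 of 17 members were opposite and 6 fell in both, the latter including SHMT1 (−0.66 and −1.25). Each class held 35.3% of this list, against 8.12% and 19.6% of all genes.

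Unfolded protein response genes rose in 21 of 25 cases in PC3, none fell there, and 15 (60%, against 47.8% of all genes) fell with tetracycline. In this list 11 were opposite (9 with TMM scaling), or 44% against 8.12% of all genes. HSPA5, the main chaperone of the endoplasmic reticulum, measured 539, 535 and 535 CPM in PC3 controls, 1538, 1490.0 and 1396 CPM in PC3 with MYCi975, 659.7, 669 and 692 CPM in P493-6 controls and 315, 311 and 314 CPM with tetracycline, with 1.46 in PC3 and −1.10 with tetracycline. HERPUD1 and SYVN1, which serve the degradation of misfolded proteins, rose in both (1.83 and 1.06, and 0.47 and 1.08). Of 21 genes of the antioxidant factor NRF2, 11 were opposite, among them the cystine carrier SLC7A11 (1.94 in PC3 and −0.46 with tetracycline, the latter not called by DESeq2) and thioredoxin TXN (0.25 in PC3 and −1.90 with tetracycline), and 5 rose in both, among them ferritin heavy chain FTH1 (1.27 and 1.10, with a difference that DESeq2 turned from 0.17 to −0.05) and haem oxygenase HMOX1 (1.83 and 0.92). Cholesterol synthesis rose in 11 of 24 cases in PC3 and fell in 19 with tetracycline, with 7 opposite. Among these 7 were the sterol sensor partner INSIG1 (0.81 in PC3 and −0.91 with tetracycline) and MSMO1 (0.83 in PC3 and −0.77 with tetracycline). Opposite shares of the NRF2 and cholesterol lists, 52.4% and 29.2%, compare with 8.12% of all genes. EIF4EBP1, the inhibitor of cap-dependent translation, measured 166, 155 and 159 CPM in PC3 controls, 278, 265 and 285 CPM in PC3 with MYCi975, 106, 107 and 100.3 CPM in P493-6 controls and 20.4, 20.2 and 19.3 CPM with tetracycline. Within the MYC network MNT and MXI1, which compete with MYC for MAX, were opposite too (0.57 in PC3 and −0.58 with tetracycline, and 1.02 in PC3 and −1.88 with tetracycline), whereas MXD1, another competitor, rose in both (1.40 and 1.62).

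Among opposite genes that fell in PC3 and rose with tetracycline, H3C3, a replication-dependent histone H3 gene (ENSG00000278272, chromosome 6, 26045411 to 26045821 on the plus strand), was first by the same ranking. It measured 365, 362 and 347 CPM in PC3 controls, 109, 123 and 117 CPM in PC3 with MYCi975, 43.4, 42.3 and 47.4 CPM in P493-6 controls and 137, 127 and 128 CPM with tetracycline, without overlap, and changed by −1.61 (SE 0.050, adjusted p = 3.85e-24) in PC3 and 1.54 (SE 0.050, adjusted p = 8.43e-25) with tetracycline. HES1, a repressor that answers to Notch signalling, measured 74.8, 71.7 and 80.1 CPM in PC3 controls, 35.3, 38.6 and 35.8 CPM in PC3 with MYCi975, 2.04, 1.39 and 1.94 CPM in P493-6 controls and 14.3, 14.7 and 12.9 CPM with tetracycline. ID2, which blocks basic helix-loop-helix factors, measured 76.9, 78.5 and 75.5 CPM in PC3 controls, 28.1, 30.8 and 31.7 CPM in PC3 with MYCi975, 11.8, 11.9 and 10.03 CPM in P493-6 controls and 28.8, 32.8 and 30.9 CPM with tetracycline. Both genes stood lower in every PC3 library with MYCi975 and higher in every tetracycline library. Log2 fold changes were −1.32 (SE 0.078, adjusted p = 2.85e-16) in PC3 and 1.38 (SE 0.078, adjusted p = 1.02e-17) with tetracycline for ID2 and −1.03 in PC3 and 2.43 with tetracycline for HES1. TLE3, a co-repressor of the Groucho family, measured 128, 131 and 128 CPM in PC3 controls, 56.8, 57.7 and 61.6 CPM in PC3 with MYCi975, 139.7, 141 and 135 CPM in P493-6 controls and 459, 479 and 501 CPM with tetracycline, with −1.12 in PC3 and 1.78 with tetracycline. Further genes of the class were FAM43A (−1.43 and 2.06), the PCNA-binding protease FAM111A (−1.24 and 1.12) and vasorin VASN (−1.11 and 2.42). With them came the adhesion scaffold NEDD9 (−1.01 and 2.19) and the prostaglandin receptor PTGER4 (−0.91 and 1.61). For each of these genes, groups did not overlap in either line.

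Mitosis genes fell throughout PC3. Of 43 measured members 43 fell in PC3, against 28.6% of all genes. With tetracycline 25 fell (58.1%, against 47.8% of all genes) and 8 rose (18.6%, against 33.1%), and the medians were −0.92 in PC3 and −0.20 with tetracycline. The difference was negative, that is the PC3 value lay lower, for 37 members. With TMM scaling the tetracycline split was 19 down and 15 up, and with DESeq2 the tetracycline median was 0.063. CCNB1, cyclin B1, fell in both (−1.18 in PC3 and −0.82 with tetracycline). The mitotic kinesin KIF20A measured 109, 112 and 109.5 CPM in PC3 controls, 34.5, 34.2 and 34.3 CPM in PC3 with MYCi975, 102, 96.05 and 93.5 CPM in P493-6 controls and 82.3, 85.9 and 80.1 CPM with tetracycline, and its tetracycline value of −0.23 did not pass with TMM scaling and became 0.04 with DESeq2. ANLN, the cytokinesis protein anillin, measured 338, 362 and 352 CPM in PC3 controls, 148, 151 and 149 CPM in PC3 with MYCi975, 54.9, 52.3 and 48.8 CPM in P493-6 controls and 70.8, 58.3 and 63.7 CPM with tetracycline, with −1.23 in PC3 and 0.30 with tetracycline. CDC25C, the phosphatase at entry into mitosis, changed by −0.67 in PC3 and 0.73 with tetracycline and the centrosome kinase NEK2 by −0.75 in PC3 and 0.36 with tetracycline.

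Histone genes, made in step with DNA replication, fell in PC3. Of 38 measured histone genes 35 fell in PC3, against 28.6% of all genes. With tetracycline 15 rose (39.5%, near the 33.1% of all genes), 10 fell (26.3%, against 47.8%) and 13 did neither, at medians of −1.19 in PC3 and 0.01 with tetracycline. The difference was negative for 35, and 13 were opposite (5.50% of all genes are in this class), 22 with TMM scaling, under which 25 rose and 7 fell with tetracycline. H2AC4 measured 82.9, 83.5 and 78.9 CPM in PC3 controls, 18.4, 20.05 and 23.1 CPM in PC3 with MYCi975, 173, 185 and 185 CPM in P493-6 controls and 187, 179.7 and 170.2 CPM with tetracycline; the PC3 groups were apart and the P493-6 groups overlapped. H2BC3 changed by −2.02 in PC3 and 1.03 with tetracycline and H2AC12 by −1.78 in PC3 and −0.71 with tetracycline. The variant H2AZ1, which does not depend on replication, fell in both (−0.57 in PC3 and −1.49 with tetracycline). Histone genes are near copies of each other, so values of single members are uncertain.

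Control of the step from G1 to S was mixed. SKP2, which marks the inhibitor p27 for degradation, fell in both (−0.999 in PC3 and −1.60 with tetracycline). CDK6 rose in PC3 and fell with tetracycline (0.72 in PC3 and −1.34 with tetracycline), and its inhibitor CDKN2C did the reverse (−1.61 in PC3 and 1.11 with tetracycline). Immediate early genes and inhibitors of MAP kinase signalling rose in 16 of 20 cases with tetracycline and in 7 in PC3, where 6 fell. The tetracycline share of 80% compares with 33.1% of all genes, while the PC3 shares, 35% up and 30% down, lie near the 24.8% and 28.6% of all genes. DUSP1 rose in both (1.27 and 1.04), and EGR2 (−0.79 in PC3 and 2.37 with tetracycline) and SPRED2 (−0.49 in PC3 and 2.29 with tetracycline) were opposite. Of the inflammatory list driven by NF-kB, rises came to 15 of 17 genes with tetracycline and 10 in PC3. RELB rose in both (1.31 in PC3 and 1.28 with tetracycline, difference 0.02, SE 0.129, adjusted p = 0.873), NFKB1 was opposite (−0.59 in PC3 and 0.74 with tetracycline), and SOD2, the mitochondrial superoxide dismutase, was opposite in the other direction (1.01 in PC3 and −1.78 with tetracycline).

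The largest negative differences were interferon-stimulated genes, the antiviral set that cells raise in response to interferon. Of 42 listed members 34 were in both tables. For 9 of these, OAS3, RSAD2 and IFI35 among them, fewer than 2 P493-6 controls were above 1 CPM. The tables could hold these genes only through the tetracycline libraries, so their rises were fixed by the limit. The other 25 rose with tetracycline as well, at a median of 3.56. In PC3 17 of the 34 rose, 6 fell and 11 did neither, at a median of 0.19. OAS3 (ENSG00000111331, chromosome 12, 112938352 to 112973249 on the plus strand), which makes the 2-5A messenger that activates RNase L, measured 72.1, 76.00 and 75.4 CPM in PC3 controls, 47.2, 42.6 and 45.4 CPM in PC3 with MYCi975, 0.291, 0.409 and 0.102 CPM in P493-6 controls and 51.4, 59.2 and 49.1 CPM with tetracycline. The P493-6 controls hold only a few reads of it, so the change of −0.71 (SE 0.094, adjusted p = 6.61e-08) in PC3 and 5.42 (SE 0.094, adjusted p = 1.18e-32) with tetracycline depends on the added 1 CPM for its second value, and the PC3 value did not pass with a pseudocount of 0.1. IFI6 measured 4.27, 4.48 and 4.63 CPM in PC3 controls, 6.63, 6.30 and 7.78 CPM in PC3 with MYCi975, 1.07, 1.06 and 1.23 CPM in P493-6 controls and 184, 185 and 158 CPM with tetracycline, and rose in both (0.53 in PC3 and 6.38 with tetracycline). MX1, a GTPase that blocks viruses, measured 19.97, 21.5 and 24.9 CPM in PC3 controls, 21.3, 19.5 and 19.5 CPM in PC3 with MYCi975, 21.1, 25.5 and 23.6 CPM in P493-6 controls and 956, 1054 and 922 CPM with tetracycline; the PC3 groups overlapped and the value of −0.13 did not pass (adjusted p = 0.145), against 5.32 with tetracycline. IFIT1 fell in PC3 (−0.32 in PC3 and 4.83 with tetracycline). IFI35 (0.31 and 4.66) and HELZ2 (0.16 and 5.03) rose slightly there, at adjusted p-values of 0.0440 and 0.0447 that were lost when single libraries were left out. RSAD2, viperin, stood at 0.380 to 0.440 CPM in PC3 controls and 4.04 to 4.86 CPM with MYCi975, and at 0 to 0.205 CPM in P493-6 controls and 22.0 to 29.8 CPM with tetracycline; it met the limit only in the treated group of each line, so its direction was fixed by the limit. The summed myeloid, B cell, T cell and fibroblast markers given above were also higher in these tetracycline libraries.

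On the positive side, the largest differences after MYC were FJX1, PSAT1, TRIB3, MTSS2 and ASNS. FJX1, the relative of the fly gene four-jointed, measured 116, 103 and 114 CPM in PC3 controls, 168, 162 and 179.6 CPM in PC3 with MYCi975, 37.1, 35.1 and 42.7 CPM in P493-6 controls and 0.689, 1.23 and 1.41 CPM with tetracycline, with 0.61 in PC3 and −4.23 with tetracycline. MTSS2, listed under its older symbol MTSS1L, measured 50.4, 46.9 and 51.3 CPM in PC3 controls, 55.6, 58.2 and 61.2 CPM in PC3 with MYCi975, 95.2, 96.4 and 90.95 CPM in P493-6 controls and 4.13, 5.15 and 3.64 CPM with tetracycline, with 0.23 in PC3 and −4.17 with tetracycline. Both rose in PC3 and stood at 5.15 CPM or less with tetracycline; the PC3 rise of MTSS2 did not pass without PC3 control replicate 2 or MYCi975 replicate 3.

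The remaining lists were smaller or mixed. RNA polymerase III subunits and factors, which transcribe tRNA genes, fell in 20 of 22 cases with tetracycline and 10 in PC3, and those of RNA polymerase I in 13 of 14 and 7. Translation initiation factors fell in 33 of 39 cases with tetracycline but were balanced in PC3, with 14 up and 14 down. TCA cycle genes fell in 23 of 25 cases with tetracycline and 12 in PC3, and fatty acid synthesis genes in 13 of 15 and 8. Of 10 polyamine genes 4 fell in both, against 19.6% of all genes. Hosts of small nucleolar RNAs rose in 9 of 19 cases in PC3 and fell in 11 with tetracycline. Of the 19, 5 were opposite (26.3%, against 8.12% of all genes). Of 15 genes that restrain mTORC1, 5 rose in both, against 13.0% of all genes. Hypoxia genes rose in 8 of 18 cases in PC3 and 6 with tetracycline, where 8 fell; the tetracycline shares, 33.3% up and 44.4% down, are near those of all genes (33.1% and 47.8%). Their tetracycline median was −0.08, and 0.09 with TMM scaling. In P493-6 ADM and NDRG1 met the limit of 1 CPM only with tetracycline, so they could only be higher there. Without these 2 the hypoxia median was −0.28. Of the 6 hypoxia genes that rose with tetracycline, 5 had controls that met the limit too. Of 24 genes of G1 and S phase control, 7 fell in both and 4 fell in PC3 and rose with tetracycline, or 29.2% and 16.7% against 19.6% and 5.50% of all genes. In the BCL2 family, 7 of 17 rose in both, against the same 13.0%. Here HRK met the limit of 1 CPM in P493-6 only with tetracycline, and 2 members met it in PC3 only with MYCi975. Of the 11 tetracycline rises of this family, 10 had controls that met the limit too. That count was 7 of 8 for the mTORC1 list and 20 of 21 for quiescence. It was 22 of 23 for lysosome and autophagy and 15 of 16 for immediate early genes.

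**Figure D4:**
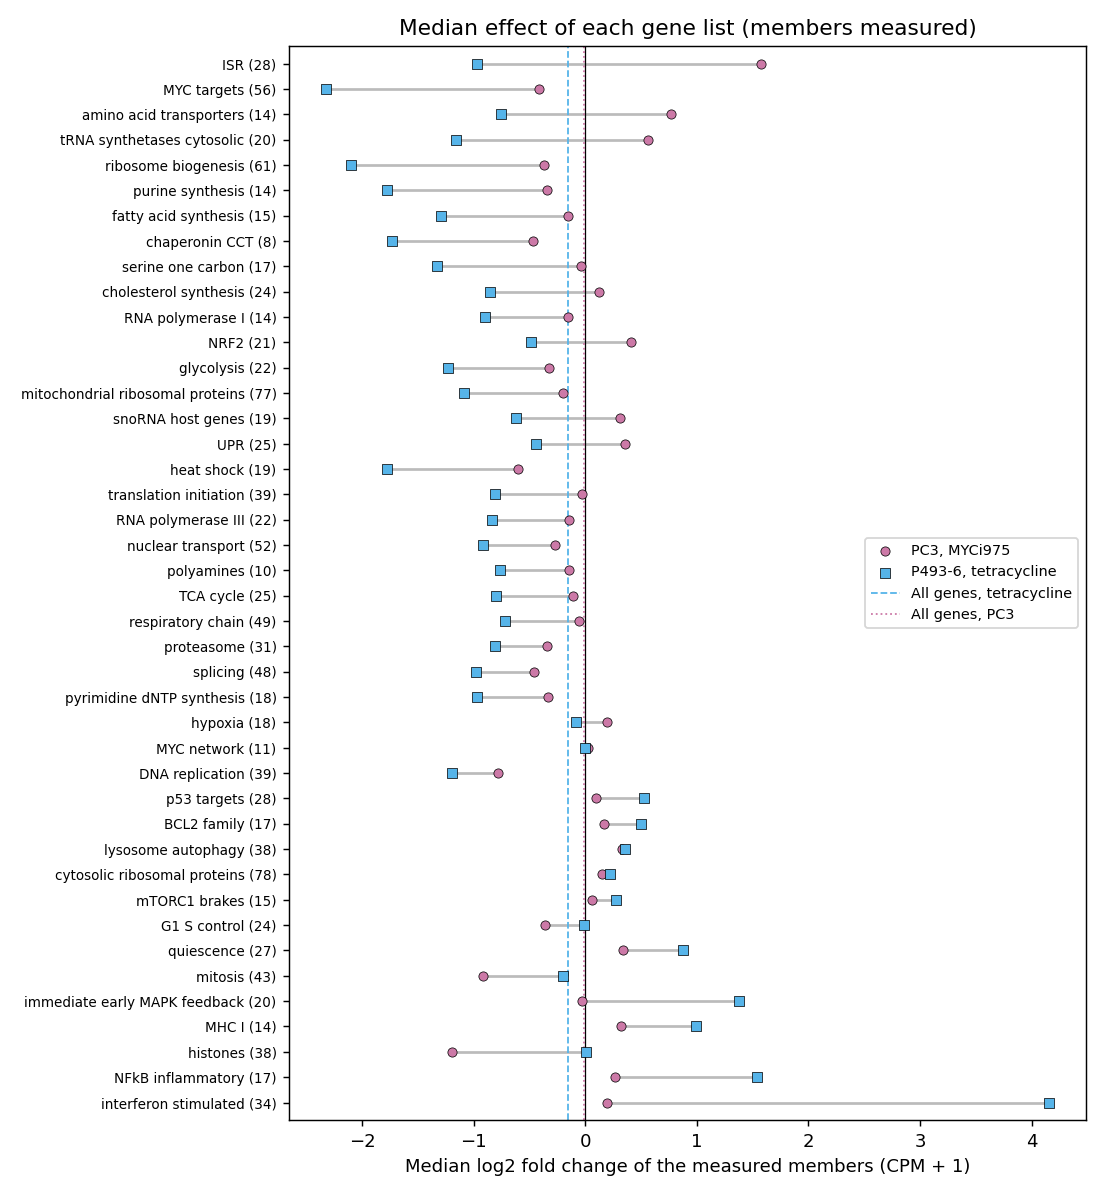
For each of 42 gene lists, the median log2 fold change of its measured members (number in brackets) with MYCi975 in PC3 (circles) and with tetracycline in P493-6 (squares), ordered by the median difference; dashed and dotted lines are the medians over all genes. The ISR list stands at 1.57 and −0.97 at the top, and the interferon list at 0.19 and 4.16 at the bottom. Both hold members that met the limit of 1 CPM in P493-6 only with tetracycline. Without those members the tetracycline medians were −1.15 for the ISR list and 3.56 for the interferon list.

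Some genes changed in only 1 of the effects, called there and within 0.1 of 0 in the other, with the difference called. They numbered 161 up (1.41%) and 215 down (1.88%) in PC3, and 721 up (6.31%) and 1130 down (9.88%) with tetracycline. The PC3 classes depend on the scaling. With TMM 19 of the 161 and 18 of the 215 stayed in their class, against 580 of the 721 and 777 of the 1130. With DESeq2 0 of the 161 and 1 of the 215 stayed, against 537 of the 721 and 631 of the 1130. The totals of the DESeq2 classes were 140 up and 157 down in PC3, and 861 up and 798 down with tetracycline. ERN1, the endoplasmic reticulum stress sensor IRE1, measured 13.6, 13.3 and 12.4 CPM in PC3 controls, 73.2, 69.99 and 67.4 CPM in PC3 with MYCi975, 16.7, 14.9 and 14.7 CPM in P493-6 controls and 14.7, 16.3 and 13.7 CPM with tetracycline, with the P493-6 groups overlapping, and changed by 2.33 (SE 0.087, adjusted p = 7.1e-22) in PC3 and −0.05 (SE 0.087, adjusted p = 0.616) with tetracycline. CEBPG, a partner of ATF4, had 1.56 in PC3 and 0.08 with tetracycline, and the amino acid transporter SLC1A4 1.18 in PC3 and 0.06 with tetracycline; with TMM scaling both passed with tetracycline as well (0.26 and 0.24). LONRF1 had 1.46 in PC3 and −0.05 with tetracycline and PABPC1L 1.08 in PC3 and −0.02 with tetracycline. The lipid phosphatase INPP4B had 1.12 in PC3 and −0.01 with tetracycline. The 6 falls of this kind in PC3 named by rule were all histone genes: H2AC4, H2AC16, H2BC7, H3C10, H2BC11 and H2AC17, from −1.95 to −1.42 in PC3. With TMM scaling each of the 6 also passed the threshold as a rise with tetracycline, at 0.12 (H2BC7) to 0.26 (H2AC16), and so left the class.

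With tetracycline alone, the largest rise was that of GSN, the actin-severing protein gelsolin (0.06 in PC3 and 3.50 with tetracycline). The receptor phosphatase PTPRJ (0.03 in PC3 and 3.36 with tetracycline) and galectin 1, LGALS1 (−0.09 in PC3 and 3.33 with tetracycline), were also among the largest. OAS2, a relative of OAS3 (−0.05 in PC3 and 3.03 with tetracycline), and the junction protein plakoglobin JUP (−0.04 in PC3 and 2.98 with tetracycline) were the last named by rule. The largest falls were B4GALT2, a galactosyltransferase (−0.07 in PC3 and −3.79 with tetracycline), and SCD (0.01 in PC3 and −3.51 with tetracycline). COA7, needed to assemble cytochrome oxidase (−0.04 in PC3 and −3.16 with tetracycline), and the prolyl isomerase FKBP11 (−0.09 in PC3 and −3.08 with tetracycline) followed. The exosome subunit EXOSC5 (−0.10 in PC3 and −3.07 with tetracycline) and RABEPK (−0.09 in PC3 and −2.98 with tetracycline) were the last of the 6. SCD, the desaturase that makes monounsaturated fatty acids, measured 324, 326 and 321 CPM in PC3 controls, 326, 326 and 324 CPM in PC3 with MYCi975, 895, 829 and 847 CPM in P493-6 controls and 72.1, 73.3 and 77.2 CPM with tetracycline; PC3 groups overlapped, and P493-6 groups were far apart. FASN, fatty acid synthase, fell slightly in PC3 and strongly with tetracycline (−0.25 in PC3 and −3.42 with tetracycline).

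Promoter sequences of RefSeq, build GRCh38.p14, were read for all classes. The search took in motifs that MYC, ATF4 and E2F factors are known to bind and a further element, TTTGAA. Searched on both strands, from 250 bases before to 50 after the start, were CACGTG (the E-box of MYC and MAX), TGATGNAA (the shared element of ATF4 and C/EBP factors), TTCCCGC (a common E2F element) and TTTGAA (an element of genes repressed outside mitosis), where N is any base; 8819 of the 11435 genes had a promoter in the table. The 150 bases before the start are shown for 6 genes of 3 classes, picked because they hold a match, in lower case with motif matches in capitals, each written 5′ to 3′ on the strand of the gene. For genes up in PC3 and down with tetracycline, the matches in ASNS (chr7:97872409-97872558, minus strand) and BCAT1 (chr12:24949102-24949251, minus strand) are TGATGNAA, 68 and 48 bases before the start, followed in ASNS by TTCCCGC at 59. For concordant falls, MCM2 (chr3:127598261-127598410, plus strand) holds CACGTG at 11 bases, UHRF1 (chr19:4909351-4909500, plus strand) holds TTCCCGC at 104 and, on the other strand, 14 bases, and PCNA (chr20:5126623-5126772, minus strand) holds it on the other strand at 59. B4GALT2 (chr1:43979787-43979936, plus strand), down with tetracycline alone, holds CACGTG at 63.
ASNS: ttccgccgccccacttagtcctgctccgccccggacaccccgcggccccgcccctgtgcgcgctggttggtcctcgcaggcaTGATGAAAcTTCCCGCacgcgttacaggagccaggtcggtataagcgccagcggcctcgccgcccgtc
BCAT1: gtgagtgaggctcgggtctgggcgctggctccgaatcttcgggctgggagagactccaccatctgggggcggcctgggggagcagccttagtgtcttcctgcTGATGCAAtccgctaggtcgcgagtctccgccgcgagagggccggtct
MCM2: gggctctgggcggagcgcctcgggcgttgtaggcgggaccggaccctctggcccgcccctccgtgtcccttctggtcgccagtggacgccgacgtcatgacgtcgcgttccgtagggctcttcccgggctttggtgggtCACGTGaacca
UHRF1: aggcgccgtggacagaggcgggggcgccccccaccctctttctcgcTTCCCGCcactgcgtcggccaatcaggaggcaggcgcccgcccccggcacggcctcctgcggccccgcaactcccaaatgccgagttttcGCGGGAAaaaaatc
PCNA: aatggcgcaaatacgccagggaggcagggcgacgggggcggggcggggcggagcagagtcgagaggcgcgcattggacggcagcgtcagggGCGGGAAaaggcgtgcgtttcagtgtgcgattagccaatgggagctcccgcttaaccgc
B4GALT2: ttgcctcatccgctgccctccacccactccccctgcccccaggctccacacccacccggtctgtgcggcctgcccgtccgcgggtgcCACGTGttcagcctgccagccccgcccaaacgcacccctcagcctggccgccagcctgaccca

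Counted over classes, CACGTG was found in 10.8% of promoters of all genes tested and in 16.1% of those up in PC3 and down with tetracycline. It was in 14.1% of those down with tetracycline alone and in 7.02% of those up with tetracycline alone. Concordant falls, at 11.2%, and concordant rises, at 10.4%, were near the share of all genes. TGATGNAA was in 1.42% of all and in 2.65% of the class up in PC3 and down with tetracycline, 20 promoters of 756. Genes up and down in PC3 alone had similar shares, 2.33% (3 of 129) and 2.26% (4 of 177). TTCCCGC was in 10.99% of all and in 15.9% of concordant falls. TTTGAA was in 9.33% of all and in 19.2% of the genes down in PC3 alone, 34 of 177, a class that includes the 6 histone genes above and depends on the scaling. A match describes letters in a window and is no evidence of binding, and no test was made of these shares.

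**Figure D5:**
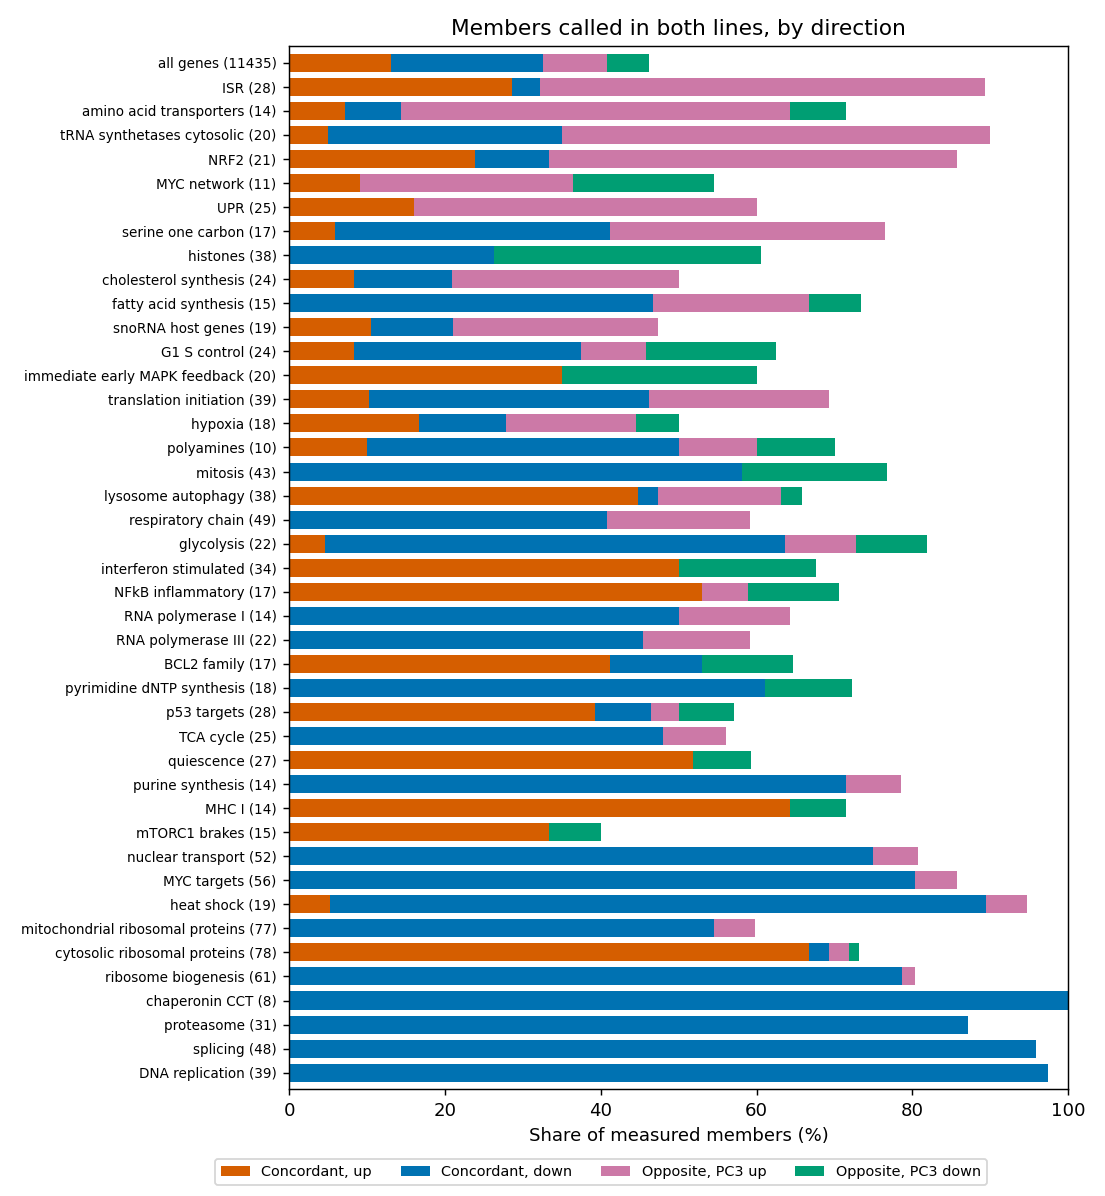
Share of the measured members of each gene list (number in brackets) called in both effects, split into concordant rises, concordant falls and the 2 opposite classes, in percent; the uppermost bar gives all 11435 genes. DNA replication and splicing consist almost wholly of concordant falls, and the ISR and amino acid transporter lists have the largest opposite share, 57.1% each.

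For scale, P493-6 cells that received 6 µM MYCi975 had 3 libraries, which share the P493-6 controls given above with tetracycline and so are set beside it without a test. ASNS stood at 66.97, 69.6 and 62.9 CPM there, PSAT1 at 107, 118 and 98.3 CPM and TRIB3 at 56.2, 64.5 and 58.01 CPM. These lie above the P493-6 controls. Of the 10 genes up in PC3 and down with tetracycline that the rule named, 7 stood above all controls, FAM241A and RDH10 below them, and RGCC overlapped them. SOD2, another opposite gene, stood below them, at 55.9, 53.4 and 53.8 CPM. Of the 10 down in PC3 and up with tetracycline, 2 stood above the controls, 2 below and 6 overlapped. PCNA stood at 188, 186 and 188 CPM, MCM10 at 57.5, 67.8 and 61.7 CPM and UHRF1 at 117, 122 and 121 CPM, below the controls and above the tetracycline libraries. Of the 10 concordant falls that the rule named, 8 stood below all controls and 2 overlapped them. Of the 10 concordant rises, 3 stood above all controls and 7 overlapped them. IFI6 stood at 1.20, 1.28 and 0.799 CPM and SLFN5 at 5.39, 3.65 and 4.29 CPM, close to the controls. H2AC4 stood at 160.4, 146 and 149.8 CPM, below the controls, while HES1 at 1.80, 2.47 and 2.20 CPM overlapped their range. The dose differs from that given to PC3.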

How the data were processed

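RNA of cultured PC3 and P493-6 cells was sequenced after 24 h; per the labels' protocols, total RNA (50 ng) went through an exon-capture library kit that keeps strand. The submitters' processing notes name STAR, HTSeq, edgeR and the build hg38, all without a version number. For each comparison the authors deposited a table with CPM per library, not scaled between libraries, their log2 fold changes, p-values and a test score per gene. The authors' log2 values, p-values and scores were read only to set their calls beside those made here.

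Effects were fitted with limma 3.58.1 in R 4.3.3 on log2(CPM + 1), a pseudocount of 1 CPM, over the 11435 genes of both tables, with trend and robust variance, 4 group means and 12 libraries. Contrasts were MYCi975 minus control in PC3, tetracycline minus control in P493-6 and the first minus the second, each adjusted over all genes by Benjamini-Hochberg, with a threshold of 0.05. A gene is concordant if called in both effects with the same sign, and opposite if called in both with opposite signs and in the difference. The deposited CPM are whole multiples of 1 read (within 0.001), so reads were recovered for edgeR 4.0.16 and DESeq2 1.42.0, and 1 CPM stands for 8.16 to 15.9 reads. Of 205 genes without a symbol in the files, 178 were named from reference tables.

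Named genes are, by rule, MYC and MAX; per concordant or opposite class the 10 with the largest smaller-of-both change among genes with a mean of at least 5 CPM in each line and groups that do not overlap; the 6 largest for each class changed in 1 effect; the 6 largest differences in each direction; and up to 2 concordant, 2 opposite and 2 most different members of each of 42 gene lists. Some genes that the rule takes in are not reported here. The members and lists were chosen with earlier results of these data known. The fits were tested on simulated data.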

Additional observations from a re-analysis of the deposited data

How the results depend on the processing

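With a minimum absolute log2 fold change of 0.5, fewer genes passed: 970 up and 999 down in PC3, 2499 up with tetracycline, 446 concordant rises, 530 concordant falls, 191 and 121 opposite genes (up in PC3, down in PC3) and 48 up and 83 down in PC3 alone. Leaving out each library in turn gave 2508 to 2903 rises and 2957 to 3362 falls in PC3, 3600 to 3777 and 5250 to 5453 with tetracycline, 4751 to 4889 positive and 3081 to 3228 negative differences, 1337 to 1508 concordant rises, 2041 to 2270 concordant falls, 808 to 950 and 547 to 632 opposite genes, and 144 to 169, 191 to 211, 663 to 711 and 1077 to 1128 genes changed in 1 effect. Replicate numbers did not pair the samples: deviations of same-numbered samples correlated at −0.057 to 0.027. A fit with the replicate number as a block gave 2817 rises and 3241 falls in PC3, 3759 and 5449 with tetracycline, 1474 and 2221 concordant, and 927 and 613 opposite genes.

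For the 258 named genes, 17618 of 18018 values kept direction and side of the threshold, 311 lost and 63 gained a call, and 26 changed sign. With DESeq2, the sign changed for the differences of ATP5F1A (−0.13), FADS2 (−0.067), FTH1 (−0.050), GABARAPL1 (−1.42; −1.29 with edgeR) and PSMD6 (−0.059), and with a pseudocount of 5 for NDRG1 (0.60) and RPS6KA2 (−0.29). For the tetracycline effect it changed with DESeq2, TMM and edgeR in H2AC4 (0.25, 0.17, 0.17), H2BC11 (0.24, 0.16, 0.16), H2BC7 (0.20, 0.12, 0.12), MAX (0.27, 0.18, 0.18) and RPL27 (0.095, 0.011, 0.012), with DESeq2 in KIF20A (0.037), and with DESeq2 and edgeR in LONRF1 (0.22, 0.14). The cause was not tested. The authors' deposited table marked 2801 genes up and 3078 down in PC3 and 3779 and 4738 with tetracycline, none against the direction found here.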

Other observations

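Further gene families, taken by symbol or annotated type after the values were seen, add to the account and carry no test. Over all genes 24.8% rose and 28.6% fell in PC3, 33.1% rose and 47.8% fell with tetracycline, 19.6% fell in both and 5.50% fell in PC3 and rose with tetracycline. All 11 measured SR splicing factors fell in both effects, at median log2 fold changes of −0.75 in PC3 and −1.09 with tetracycline. Genes for protein import into mitochondria (TOMM and TIMM) fell in 24 of 24 cases with tetracycline and in 11 in PC3, where 4 rose, and the difference was positive for all 24. Of 21 tubulin genes 14 fell in both. Histone lysine demethylases rose in 13 of 18 cases with tetracycline and in 6 in PC3, and 4 were opposite. The 405 zinc finger genes named ZNF had 79 up and 76 down in PC3, against 177 up and 119 down with tetracycline; their PC3 shares, 19.5% and 18.8%, lie below those of all genes. Of 58 snoRNA entries 13 rose and none fell in PC3, and 18 rose and 12 fell with tetracycline; the shares that rose, 22.4% and 31%, are near those of all genes.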
